A study of Mus musculus with 4 samples.

Results

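Efferocytosis is the uptake of dying cells by phagocytes, and 8 genes of its recognition step were followed across the cells of a mouse mammary tumour model. They are the bridging molecules Mfge8, Gas6 and Pros1 and the receptors Mertk, Axl, Timd4, Stab1 and Itgav, taken by symbol from the 27998 features of the deposited matrices, and all 8 were found. The MT4788 tumour line was grown orthotopically in FVB mice of wild-type genotype, and tumours were taken on day 4. There were 4 libraries, 1 per treatment: saline with PBS (control), saline with phenformin, poly I:C with PBS, and poly I:C with phenformin (combination). Phenformin, a relative of metformin, blocks mitochondrial complex I, and poly I:C, a mimic of viral double-stranded RNA, activates Toll-like receptor signalling. The study asks what the pair does to the tumour's immune cells. Before droplet-based 3′ sequencing, which counts transcripts by unique molecular identifiers (UMIs), cells were enriched with magnetic beads for the leukocyte antigen CD45. Tumour cells and stroma in these libraries are therefore those that passed this enrichment, and their numbers do not describe the tumour.

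A dying cell exposes phosphatidylserine on its outer membrane. MFG-E8 binds this lipid and links it to integrins that hold the alpha v chain, the product of Itgav, whereas GAS6 and protein S, the product of Pros1, link it to the TAM receptor kinases TYRO3, AXL and MERTK. TIM-4, the product of Timd4, and stabilin-1, the product of Stab1, bind phosphatidylserine directly. Tissue macrophages are the main users of this machinery, and it is known to damp inflammation as the cargo is taken up.

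Cells with at least 200 detected genes and under 20% mitochondrial UMIs were kept. They were assigned by raw UMIs to a macrophage gate (Csf1r, Cd68 and Adgre1 together at least 3), divided at 3 UMIs of Vcam1 and Ccl8 together into a Vcam1/Ccl8-high and a Vcam1/Ccl8-low part. The monocyte gate took cells with at least 2 Ly6c2 UMIs and under 5 UMIs of the C1q chains, the Flt3 gate took cells with at least 1 Flt3 UMI, and the keratin gate took cells with at least 5 UMIs of Krt5 and Krt14 and none of Ptprc. T cells in no other gate (at least 2 Cd3 UMIs) served as the reference for RNA that was free in the suspension. Some T cell droplets also held keratin or collagen RNA, so this reference is not free RNA alone. The order of values below is control, phenformin, poly I:C and combination throughout. The high macrophage part held 1180, 1326, 1846 and 1964 cells and the low part 850, 942, 795 and 795. The monocyte gate held 1093, 1062, 1391 and 1409 cells, the Flt3 gate 300, 269, 203 and 218, the keratin gate 376, 209, 592 and 420, and the T cell gate 1223, 1127, 1328 and 2178.

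The gates were set beside marker lists. These lists also hold genes of the gate rules, among them Csf1r, Cd68, Adgre1, Krt5 and Krt14, so the sums are in part fixed by the gates. In the control keratin gate Krt5 and Krt14 gave 4014 of the 7439 CPM of the epithelial list. The 9 macrophage markers summed to 12013 to 27905 CPM (counts per 1000000) in the high part and 2524 to 6605 CPM in the low part, and the 8 epithelial markers to 6899 to 8871 CPM in the keratin gate. Macrophage marker sums were higher in both poly I:C libraries than in the other pair in both macrophage parts. Labels were less clean elsewhere. In the monocyte gate 34.4% to 52.0% of the cells were also in the macrophage gate. Its neutrophil marker sum was 337, 223, 1065 and 3425 CPM. The T cell marker sum of the monocyte gate was 1012, 895 and 1445 CPM in control, phenformin and poly I:C. In the macrophage gate that sum was 155, 121 and 205 CPM, so the monocyte gate also held T cell RNA. In the Flt3 gate the plasmacytoid marker sum (3901 to 5583 CPM) was above that of the conventional dendritic list (1091 to 1569 CPM), and 51.3% to 59.6% of its cells were also in the monocyte gate, so it is called by its rule here and not dendritic. The libraries kept 6095, 5453, 6619 and 8268 cells with 57332308, 61097586, 76070132 and 71308923 UMIs, and pairs of libraries shared 11 to 29 barcodes. Median UMIs per cell ran from 10797 to 14400 in the high macrophage part, from 25153 to 29810 in the keratin gate and from 4361.5 to 6667 in the T cell gate.

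The 250 bases upstream of the start of 5 members are shown, because these 5 carry the results below. Mertk and Stab1 were high in the same macrophage part. Mfge8 and Gas6 were the bridging molecules with a source in keratin-positive cells, and Timd4 had a pattern of its own. They are from RefSeq, build GRCm38.p6, in the 5′ to 3′ direction of the gene, and capitals mark every match, on either strand, to one of the 6 motifs given after them. The genes themselves lie at chr7:79133768-79149060 (Mfge8), chr8:13465374-13494490 (Gas6), chr16:62854307-62929346 (Pros1), chr2:128698956-128802894 (Mertk), chr7:25757273-25788705 (Axl), chr11:46810800-46844332 (Timd4), chr14:31139013-31168641 (Stab1) and chr2:83724397-83806916 (Itgav) on GRCm38. The upstream window of Mertk lies at chr2:128698665-128698914 on the plus strand and Stab1 at chr14:31168642-31168891 on the minus strand. Mfge8 lies at chr7:79149061-79149310 and Gas6 at chr8:13494536-13494785, both on the minus strand, and Timd4 at chr11:46810549-46810798 on the plus strand.
Mertk: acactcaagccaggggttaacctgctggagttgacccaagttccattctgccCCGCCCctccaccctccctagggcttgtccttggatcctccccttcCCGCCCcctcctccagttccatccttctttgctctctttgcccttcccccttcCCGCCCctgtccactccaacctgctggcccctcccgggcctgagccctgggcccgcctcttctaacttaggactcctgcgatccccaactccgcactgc
Stab1: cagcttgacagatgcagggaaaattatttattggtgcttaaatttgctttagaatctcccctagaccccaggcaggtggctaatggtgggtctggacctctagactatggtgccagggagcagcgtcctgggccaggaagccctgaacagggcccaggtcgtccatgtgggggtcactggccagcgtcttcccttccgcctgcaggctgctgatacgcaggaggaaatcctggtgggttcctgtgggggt
Mfge8: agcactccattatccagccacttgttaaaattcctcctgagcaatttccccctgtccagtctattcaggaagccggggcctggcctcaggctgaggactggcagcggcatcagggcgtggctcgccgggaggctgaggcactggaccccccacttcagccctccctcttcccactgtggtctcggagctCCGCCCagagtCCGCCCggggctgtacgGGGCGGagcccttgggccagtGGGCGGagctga
Gas6: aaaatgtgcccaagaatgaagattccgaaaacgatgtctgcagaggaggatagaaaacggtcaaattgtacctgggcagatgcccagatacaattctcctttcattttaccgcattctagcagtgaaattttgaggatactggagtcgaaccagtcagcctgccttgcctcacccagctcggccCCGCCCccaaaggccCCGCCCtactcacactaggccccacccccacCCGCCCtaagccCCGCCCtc
Timd4: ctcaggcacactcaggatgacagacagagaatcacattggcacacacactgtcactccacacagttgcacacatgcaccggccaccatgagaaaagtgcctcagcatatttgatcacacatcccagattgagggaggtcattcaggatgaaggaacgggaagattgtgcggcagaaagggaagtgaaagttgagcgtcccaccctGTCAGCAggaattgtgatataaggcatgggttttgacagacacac
The motifs searched were a PU.1-like GAGGAAGT, the MAF core TGCTGAC, the AP-1 site TGANTCA, the E-box CACGTG, an interferon response motif (GAAA, 2 free bases, GAAA) and the Sp/KLF box GGGCGG. Sp/KLF boxes numbered 4 in Mfge8, 4 in Gas6, 5 in Pros1, 3 in Mertk and 1 in Axl, and 32.7% of the 32851 RefSeq promoters of that length hold at least 1. Timd4 held 1 MAF core (3.81% of promoters) and Itgav 1 PU.1-like match (2.44% of promoters). Stab1 held none of the 6. The AP-1 site (6.75%), the E-box (6.02%) and the interferon response (2.98%) were found in none of the 8 windows, which says only that these letters are absent there.

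The members were unevenly distributed over the cell gates. Counts were summed per library over cells put in 1 class each, and tested with edgeR's quasi-likelihood test with the library as a block, so that each of the 4 libraries, which differ in treatment, gave 1 value per class. A gene was called at a Benjamini-Hochberg adjusted p of at most 0.05 and a change of at least 2-fold, and all 8 members were among the 13039 genes that passed the low-count filter. Of the 8, 3 were called higher and 0 lower in Vcam1/Ccl8-high over Vcam1/Ccl8-low macrophages, where 3.82% of all genes were called in either direction. From monocytes to low macrophages 5 were called higher and 0 lower, beside 13.1% of all genes. Flt3-gate cells over macrophages gave 2 higher and 5 lower (20.3% of all genes called), and keratin-gate cells over macrophages gave 2 higher and 5 lower (50.4%). In both contrasts macrophages stand for the mean of the high and the low part on the log2 scale. The median log2 fold change of the members was 0.62 for high over low macrophages, 1.29 for low macrophages over monocytes, -2.12 for Flt3-gate cells and -1.24 for keratin-gate cells over macrophages, and that of all genes was 0.01, 0.02, -0.08 and -0.08.

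**Figure D1:**
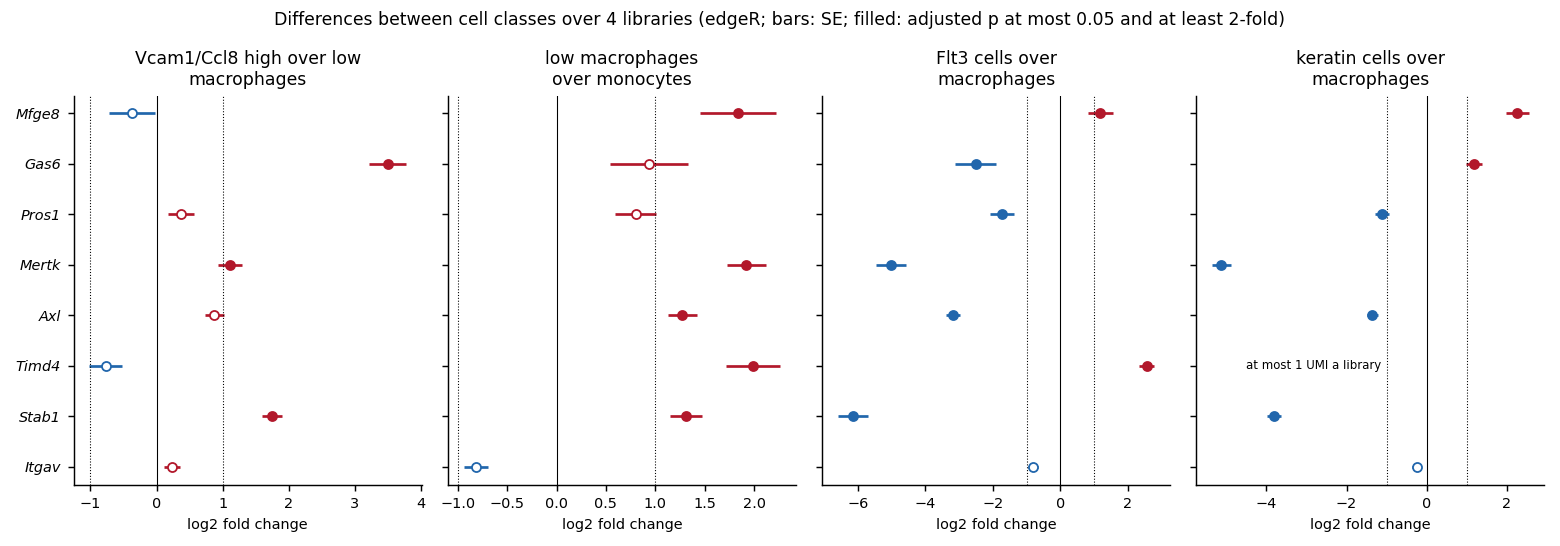
log2 fold changes of the members between classes of cells, from edgeR on 4 libraries, with bars of 1 SE and filled points for genes called at an adjusted p of at most 0.05 and 2-fold. Gas6 stands farthest to the right for high over low macrophages (3.50), and Mertk (-5.02) and Stab1 (-6.16) farthest to the left for Flt3-gate cells. In that class Mertk had 3, 1, 1 and 2 UMIs and Stab1 1, 0, 1 and 1 UMIs. These counts are at or under 3, so the size of both folds is uncertain. Timd4 is left out for the keratin gate, where it had 1 UMI.

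**Figure D2:**
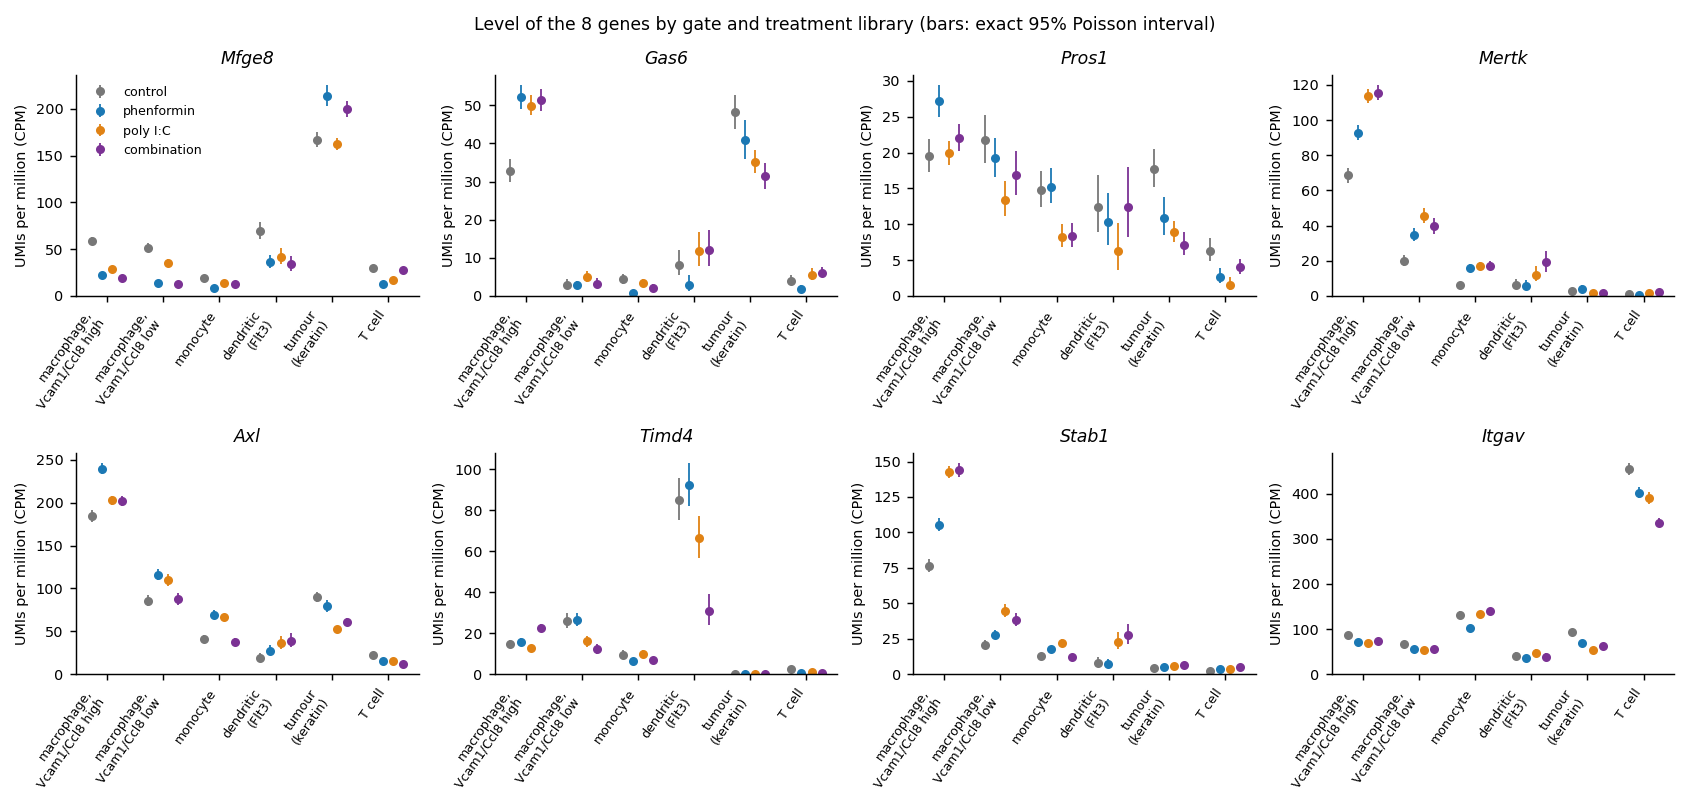
Level of each member in CPM of the summed UMIs, by gate and library, with exact 95% Poisson intervals that cover counting error only; axes are linear and start at 0. Mfge8 is highest in the keratin gate, Itgav in the T cell gate, Timd4 in the Flt3 gate, and Mertk, Axl and Stab1 in the Vcam1/Ccl8-high macrophage part in every library.

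Mfge8, the secreted bridge to alpha v integrins, was led by keratin-positive cells. In the keratin gate its level was 167, 214, 162 and 199 CPM, in the high macrophage part 59.0, 22.4, 29.2 and 19.4 CPM, and in the low part 51.5, 13.9, 35.4 and 12.5 CPM. The keratin gate was above both macrophage parts in each library, without overlap of the intervals. The monocyte gate had 18.8, 8.24, 13.5 and 13 CPM and the Flt3 gate 69.0, 36.4, 42.1 and 33.7 CPM. In the edgeR fit Mfge8 was higher in keratin-gate cells than in macrophages, with a log2 fold change of 2.26 (SE 0.28, adjusted p = 4.65e-07, 4 of 4 libraries). It was also higher in Flt3-gate cells than in macrophages (1.18, SE 0.38, edgeR adjusted p = 0.0173) and in low macrophages than in monocytes (1.84, SE 0.39, edgeR adjusted p = 0.00101). Without the phenformin library the Flt3-gate value was 0.84, under the 2-fold limit. The macrophage parts could not be ordered (log2 fold change -0.37, SE 0.35, edgeR adjusted p = 0.549, higher in 2 of 4 libraries).

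Cells outside the gates held Mfge8 as well. Cells with at least 5 UMIs of Krt8 and Krt18, no Ptprc and too little Krt5 and Krt14 for the keratin gate had 618, 552, 457 and 582 CPM, and collagen-positive, Ptprc-negative cells had 497, 278, 264 and 233 CPM. These groups were drawn up after the values were seen and were small, at 29 to 72 and 11 to 45 cells per library. Of all Mfge8 UMIs, the keratin gate held 32.0%, 40.1%, 53.4% and 46.1%.

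In macrophages the Mfge8 level rested on few cells. In the control library, 41 of the 1180 cells of the high part had 3 or more Mfge8 UMIs and held 85.5% of them, and 11 of the 850 cells of the low part held 88.3%, with 158 UMIs in 1 cell. After each cell was thinned to 2000 UMIs, 3.51%, 2.35%, 2.56% and 1.65% of the high part and 2.17%, 1.84%, 2.42% and 0.516% of the low part had an Mfge8 UMI. T cells had 3.21%, 2.31%, 1.48% and 1.81% at the same depth. The shares in macrophages were thus close to or below those of T cells in control, phenformin and combination, and above them in the poly I:C library. The T cell shares are not free RNA alone. In control, 16 of 1223 T cells held 60.9% of that gate's Mfge8 UMIs, and 12 of these 16 had 2 or more keratin or collagen UMIs. In the keratin gate the thinned share was 27.0% to 32.3%.

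The treatment ratios of Mfge8 differed in direction between gates. Each treatment had 1 library, so treatments were compared without a test, intervals cover counting error only, and a difference between 2 libraries cannot be told apart from one between treatments. The phenformin-to-control ratio was 0.379 (0.338 to 0.425) in the high macrophage part, 0.269 (0.221 to 0.326) in the low part and 0.438 (0.335 to 0.569) in the monocyte gate, but 1.28 (1.19 to 1.38) in the keratin gate. Combination over poly I:C, a pair of libraries that shares neither of those, was 0.666 (0.594 to 0.747), 0.353 (0.276 to 0.448), 0.962 (0.768 to 1.20) and 1.23 (1.16 to 1.30) in the same order. Both macrophage parts thus had less Mfge8 with phenformin on either background, and the keratin gate more. The T cell gate, the reference for free RNA, had 29.4, 12.4, 17.2 and 27.3 CPM, so that it too was lower in phenformin than in control, but higher in the combination than in poly I:C. The monocyte ratio for phenformin over control was 1.01 (0.705 to 1.45) without cells that held 2 or more keratin or collagen UMIs and 1.06 with cells thinned to 2000 UMIs. Under poly I:C alone it was 0.495 (0.449 to 0.545) in the high part, 0.687 (0.591 to 0.798) in the low part and 0.972 (0.914 to 1.03) in the keratin gate; without the 10 cells of highest Mfge8 it was 0.781 in the high part and 1.65, the other direction, in the low part.

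Keratin and collagen RNA moved with the Mfge8-high cells. Among macrophage-gate cells with 3 or more Mfge8 UMIs, 10 of 41, 9 of 33, 21 of 49 and 13 of 40 in the high part and 6 of 11, 3 of 9, 16 of 20 and 3 of 8 in the low part had 2 or more keratin or collagen UMIs. In the T cell gate it was 12 of 16, 4 of 5, 14 of 15 and 25 of 28. Without such cells the level was 51.1, 18.2, 24.5 and 16.1 CPM in the high part and 28.3, 8.53, 24.5 and 9.99 CPM in the low part. The T cell gate without them had 14.2, 8.34, 6.27 and 8.89 CPM. The phenformin-to-control ratio was then 0.356 in the high and 0.301 in the low part, and combination over poly I:C 0.657 and 0.408, close to the ratios with them. Leaving out the 10 cells of highest Mfge8 in each gate and library gave 0.503 and 0.659 in the high part, and 0.971 and 0.468 in the low part, so the control-to-phenformin difference of the low part lay within 10 cells. In cells of 2000 to 10000 UMIs phenformin over control was 1.56 in the low part, and combination over poly I:C 1.41 and 1.13 in the high and the low part, the opposite direction.

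**Figure D3:**
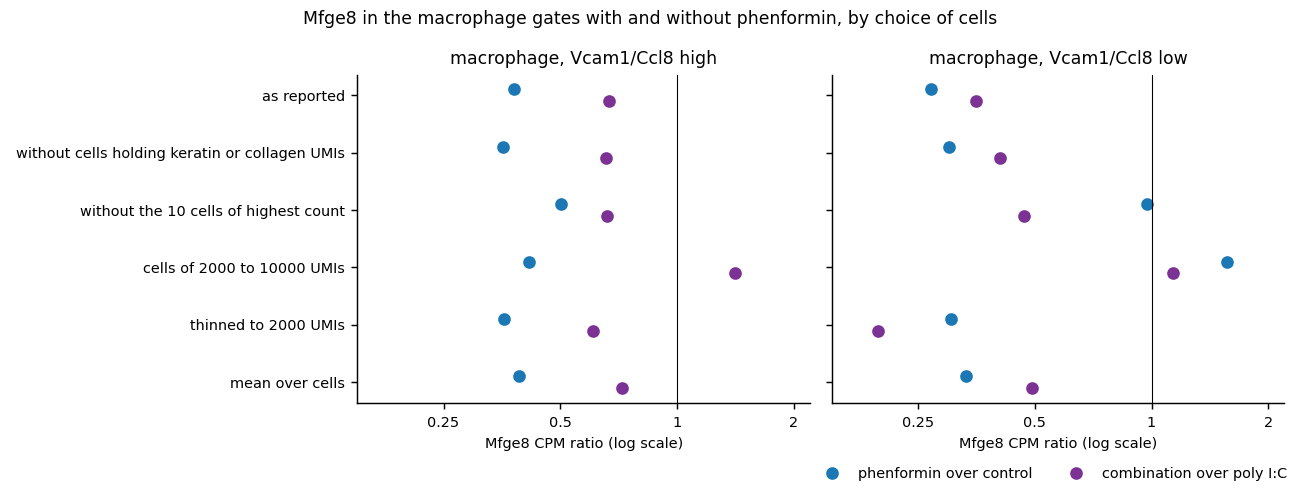
Mfge8 ratios for phenformin over control and combination over poly I:C in both macrophage parts, as reported and under 5 other choices of cells or summary, on a logarithmic axis. Points lie mainly below 1 and cross it in cells of 2000 to 10000 UMIs (1.56, 1.41 and 1.13).

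Macrophage-gate cells with 3 or more Mfge8 UMIs and under 2 keratin or collagen UMIs were described further, with genes chosen after their values were seen. There were 36, 30, 32 and 32 of them, and they held 60.0%, 45.2%, 56.4% and 49.8% of the Mfge8 UMIs of the macrophage gate. They were larger libraries, with a median of 15339 to 24690 UMIs against 8852 to 11642 in macrophage-gate cells with no Mfge8. Mmp12, the macrophage elastase, was at 5430, 5443, 2232 and 2569 CPM in them against 786, 811, 574 and 518 CPM in cells with no Mfge8. Spp1, which encodes osteopontin, was at 1154, 976, 2099 and 698 CPM against 125, 227, 174 and 110 CPM. Trem2, a lipid receptor of macrophages, was at 279, 236, 559 and 370 CPM against 85.7, 105, 196 and 180 CPM. Mmp12, Spp1 and Trem2 were higher in the Mfge8-rich cells of each library. Epcam, an epithelial surface gene, was at 179, 3.03, 2.46 and 132 CPM in them against 6.79, 8.78, 10.3 and 4.44 CPM, so that in control and combination epithelial RNA was high in these cells as well.

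Gas6, the vitamin K-dependent ligand of the TAM receptors, was higher in the Vcam1/Ccl8-high than in the Vcam1/Ccl8-low macrophage part. In the high part a small share of the cells held most of its UMIs. Its level there was 32.8, 52.1, 49.9 and 51.4 CPM, and 2.96, 2.75, 4.95 and 3.19 CPM in the low part. The low part was near the T cell gate (4.00, 1.77, 5.49 and 6.08 CPM), and the high part lay at least several-fold above both in each library. In control, 5 T cells held 70% of that gate's Gas6 UMIs, and all 5 had 2 or more keratin or collagen UMIs. Without such cells the T cell gate had 0.215, 0.863, 2.01 and 2.34 CPM, from 2 to 29 UMIs. The low part then had 2.15, 2.35, 3.25 and 2.61 CPM. The log2 fold change between the parts was 3.50 (SE 0.28, edgeR adjusted p = 3.18e-07, 4 of 4 libraries), the largest of any member in this contrast. In the high part 64 of 1180, 135 of 1326, 185 of 1846 and 154 of 1964 cells had 3 or more Gas6 UMIs. They held 55.3%, 78.2%, 65.7% and 58.8% of that part's Gas6 UMIs. Lyve1, a hyaluronan receptor, was at 2.37, 117, 31.0 and 146 CPM in them. In high-part cells with no Gas6 UMI it was at 2.69, 1.17, 0.314 and 1.67 CPM. The sum of Cd209a, Cd209d and Cd209f was 51.0, 218, 167 and 300 CPM against 21.0, 7.06, 2.83 and 5.77 CPM. Monocytes had 0.853 to 4.31 CPM of Gas6 and the Flt3 gate 2.94 to 12 CPM. The keratin gate had 48.1, 40.8, 35.1 and 31.4 CPM, above the high part in control and below it in phenformin, poly I:C and combination. Keratin-gate cells were higher than the mean of both macrophage parts by 1.18 on the log2 scale (SE 0.20, edgeR adjusted p = 2.89e-05). The low part pulls that mean down, so this does not place them above high macrophages. Without the control library the value was 0.94, under the 2-fold limit. Collagen-positive cells had 171, 937, 435 and 630 CPM, but they were so few that the high macrophage class held 37.1%, 60.8%, 54.5% and 54.2% of all Gas6 UMIs.

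The control library was the low one for Gas6 in the high macrophage part. Phenformin over control was 1.59 (1.43 to 1.77) and poly I:C over control 1.52 (1.37 to 1.69), 2 ratios that share the control. Combination over poly I:C was 1.03 (0.953 to 1.11) and combination over phenformin 0.985 (0.907 to 1.07). The 3 treated libraries thus lay together, between 49.9 and 52.1 CPM. In the keratin gate the order was another, with 0.848 for phenformin and 0.730 for poly I:C over control. Fibroblast markers summed to 115, 60.7, 210 and 112 CPM in the high part and to 4.63 to 11.0 CPM in the low part. Without cells that held keratin or collagen UMIs the Gas6 level was 31.6, 50.9, 48.6 and 49.5 CPM in the high part, nearly as large as with them.

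Pros1 encodes protein S, the other TAM ligand of the set. It was at 19.5, 27.1, 19.9 and 22.1 CPM in the high macrophage part, 21.8, 19.2, 13.4 and 16.9 CPM in the low part and 14.7, 15.3, 8.27 and 8.37 CPM in monocytes. The 2 macrophage parts did not differ by the test (log2 fold change 0.37, SE 0.19, edgeR adjusted p = 0.232), and low macrophages stood above monocytes by 0.80 (SE 0.21, edgeR adjusted p = 0.00484), under the 2-fold limit. Flt3-gate cells and keratin-gate cells were called lower than macrophages, at log2 fold changes of -1.73 and -1.12. Poly I:C over control was 1.02 (0.884 to 1.18) in the high part, but 0.616 (0.483 to 0.784) in the low part, 0.562 (0.433 to 0.727) in monocytes and 0.504 (0.401 to 0.631) in the keratin gate. Against the control, Pros1 was lower with poly I:C outside the high part, from levels of under 22 CPM. Combination over phenformin was 0.814, 0.883, 0.548 and 0.657 in the same gates, and the keratin-gate ratio turned to 2.49 with cells thinned to 2000 UMIs.

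Mertk, the TAM receptor that is best known for engulfment by resident macrophages, was graded from the high part down. It was at 68.7, 92.8, 114 and 116 CPM in the high part, 20.1, 34.9, 45.6 and 39.7 CPM in the low part and 6.10, 15.7, 17.1 and 17.0 CPM in monocytes. The 3 gates kept this order in each library without overlap of the counting intervals. The step from low to high was 1.11 on the log2 scale (SE 0.18, edgeR adjusted p = 0.000376) and the step from monocyte to low macrophage 1.92 (SE 0.20, edgeR adjusted p = 6.38e-07), each in 4 of 4 libraries. The Flt3 gate had 6.39, 5.88, 12.1 and 19.1 CPM, the keratin gate 1.42 to 4.05 CPM and the T cell gate 0.652 to 2.07 CPM. The share of cells with a Mertk UMI at 2000 UMIs per cell was 13.6%, 14.9%, 21.2% and 20.3% in the high part, where unthinned shares were 42.5%, 56.0%, 69.8% and 63.6%, and at most 0.538% in T cells.

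The control library was also the low one for Mertk. Against the control, poly I:C gave 1.66 (1.54 to 1.78) in the high part, 2.27 (1.88 to 2.75) in the low part and 2.80 (2.09 to 3.8) in monocytes. Phenformin gave 1.35 (1.25 to 1.46), 1.74 (1.44 to 2.11) and 2.58 (1.90 to 3.54) in these gates. With poly I:C present, phenformin made little difference, at 1.02 (0.965 to 1.07), 0.871 (0.746 to 1.02) and 0.996 (0.817 to 1.21). Combination over phenformin was 1.25 in the high part and within 1.08 to 1.14 in the other pair. In the Flt3 gate combination over phenformin was 3.24 (1.87 to 5.82), from 20 and 43 UMIs, and this gate's macrophage marker sum was 1058, 1128, 3355 and 4287 CPM; Flt3-gate cells that were in no other gate held 3, 1, 1 and 2 Mertk UMIs, at or under the floor of 3 counts, so the Flt3-gate ratios came from cells shared with other gates. Without cells that held keratin or collagen UMIs the ratios of the high part were 1.32 for phenformin and 1.66 for poly I:C over control.

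Axl, the TAM receptor whose preferred ligand is GAS6, had the broadest spread over gates of the 3 TAM genes. It was at 184, 240, 203 and 202 CPM in the high part, 85.5, 116, 110 and 87.9 CPM in the low part and 41.3, 69.4, 66.3 and 38.0 CPM in monocytes. The keratin gate had 90.3, 79.8, 52.5 and 61.2 CPM, so that keratin-gate cells lay between monocytes and high macrophages in the control library and below monocytes in the poly I:C library. High macrophages exceeded low ones by 0.88 on the log2 scale (SE 0.14, edgeR adjusted p = 0.00042), under the 2-fold limit, and low macrophages exceeded monocytes by 1.27 (SE 0.15, edgeR adjusted p = 2.41e-06). Flt3-gate and keratin-gate cells were called lower than macrophages, at log2 fold changes of -3.18 and -1.36. At 2000 UMIs per cell 29.3% to 33.8% of the high part and 9.16% to 16% of the keratin gate had an Axl UMI, against 1.40% to 3.30% in T cells. Tyro3, the TAM receptor outside the set, stayed at or under 2.65 CPM in the high macrophage, monocyte, keratin and T cell gates.

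Axl ratios differed in direction between gates under poly I:C. Poly I:C over control was 1.60 (1.42 to 1.81) in monocytes and 1.94 (1.39 to 2.72) in the Flt3 gate, 1.10 (1.05 to 1.15) in the high macrophage part, and 0.582 (0.529 to 0.640) in the keratin gate. Combination over phenformin was 0.548 (0.485 to 0.618), 1.41 (1.04 to 1.91), 0.844 (0.811 to 0.878) and 0.766 (0.682 to 0.862) in that order. The keratin gate was thus lower with poly I:C on either background and the Flt3 gate higher, whereas monocytes went opposite ways. Flt3-gate cells in no other gate did not show this, with 15.9, 20.9, 17.9 and 14.8 CPM of Axl from 20, 23, 12 and 7 UMIs, and the macrophage marker sum of the whole Flt3 gate was 1058, 1128, 3355 and 4287 CPM. Phenformin over control was 1.68 (1.48 to 1.90) in monocytes, and combination over poly I:C 0.574 (0.510 to 0.645). Neutrophil markers in the monocyte gate were highest in the combination (3425 CPM), and their part in these ratios was not tested.

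Timd4, the receptor of long-lived resident macrophages, was led by the Flt3 gate. It was at 84.9, 92.0, 66.2 and 31.0 CPM there, 14.5, 15.8, 12.9 and 22.5 CPM in the high macrophage part and 25.9, 26.4, 16 and 12.1 CPM in the low part. Flt3-gate cells in no other gate were above macrophages by 2.55 on the log2 scale (SE 0.23, edgeR adjusted p = 3.78e-08, 4 of 4 libraries). Within the Flt3 gate, cells with Ccr7 and Fscn1 UMIs, as in migratory dendritic cells, had 204, 281, 112 and 136 CPM, cells with Xcr1 or Clec9a 44.7, 85.2, 131 and 23.4 CPM, and cells with Siglech, as in plasmacytoid cells, 0 to 14.2 CPM, where the 0 UMIs of the phenformin library allow up to 2.96 CPM (3 counts). The migratory-type cells, 37 to 77 per library, were therefore above the Siglech cells in each library. Monocytes had 6.35 to 9.94 CPM, T cells 0.466 to 2.70 CPM, and the keratin gate 1 UMI over all 4 libraries.

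Timd4 in macrophages was also held by few cells. Of the macrophage gate 42, 63, 46 and 53 cells had 3 or more Timd4 UMIs. Cd209a, Cd209d and Cd209f, which encode DC-SIGN-type lectins, summed to 467, 328, 253 and 404 CPM in them. In cells with no Timd4 UMI the sum was 13.6, 24.7, 11.3 and 14.8 CPM. Cd209a was also in the conventional dendritic marker list. Lyve1, a hyaluronan receptor of resident macrophages, was at 36.5, 53.8, 33.3 and 119 CPM against 2.26, 4.30, 1.97 and 4.75 CPM. Ccr7, which marks migratory dendritic cells, was at 553, 336, 303 and 79.8 CPM against 71.6, 53.5, 46.4 and 40.1 CPM. Markers of both resident macrophages and migratory dendritic cells thus went with Timd4 over the whole gate, but its parts differed. In the high part, Timd4-rich cells had 9.49, 76.8, 45.2 and 133 CPM of Lyve1. Their Ccr7 was at 377, 159, 158 and 38.8 CPM, the last near the 37.2 CPM of cells with no Timd4. In the low part 18, 21, 14 and 5 such cells had 84.9, 5.30, 0 and 0 CPM of Lyve1. Their Ccr7 was at 866, 707, 713 and 427 CPM. These genes were chosen after their values were seen. Low macrophages exceeded monocytes by 1.99 (SE 0.28, edgeR adjusted p = 1.62e-05), and the log2 fold change of high over low macrophages was -0.77 (SE 0.25, edgeR adjusted p = 0.0488), under the 2-fold limit. The high-over-low value was 1.32, the opposite direction, in cells of 2000 to 10000 UMIs.

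The combination library stood apart for Timd4. Combination over poly I:C was 1.74 (1.52 to 1.99) in the high part and 0.468 (0.349 to 0.622) in the Flt3 gate. Combination over phenformin was 0.458 (0.355 to 0.584) in the low part and 0.337 (0.257 to 0.438) in the Flt3 gate. The low-part ratio turned to 1.14 under stricter gates, and 31 of the 87 UMIs of the combination there were in 1 cell. In cells restricted to the Flt3 gate alone, of which there were 122, 90, 57 and 57, the level was 189, 139, 124 and 74.0 CPM, with the combination again lowest. Phenformin over control was 1.09 (0.916 to 1.30), 1.02 (0.848 to 1.23) and 1.08 (0.920 to 1.28) in the high part, the low part and the Flt3 gate.

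Stab1, a scavenger receptor that also binds phosphatidylserine, followed Mertk. It was at 76.6, 105, 142 and 144 CPM in the high part, 20.6, 27.7, 44.8 and 38.5 CPM in the low part and 12.6, 17.4, 22.0 and 12.3 CPM in monocytes. High macrophages exceeded low ones by 1.75 on the log2 scale (SE 0.15, edgeR adjusted p = 4.26e-07) and low macrophages exceeded monocytes by 1.31 (SE 0.16, edgeR adjusted p = 5.09e-06), each in 4 of 4 libraries. The keratin gate had 4.55 to 6.61 CPM and the T cell gate 2.30 to 5.11 CPM. Endothelial-type cells outside the gates, a known site of stabilin-1, had 146, 81.4, 89.7 and 142 CPM. At 2000 UMIs per cell 14.0%, 19.1%, 24.3% and 24.7% of the high part had a Stab1 UMI, and at most 1.08% of T cells.

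Both poly I:C libraries were the high ones for Stab1 in macrophages. Against the control, poly I:C gave 1.86 (1.74 to 1.99) in the high part and 2.18 (1.81 to 2.63) in the low part, and combination over phenformin 1.37 (1.30 to 1.44) and 1.39 (1.17 to 1.64). Over the whole macrophage gate these ratios were 2.08 (1.96 to 2.22) and 1.51 (1.43 to 1.59). Phenformin over control was 1.38 (1.28 to 1.48) and 1.35 (1.11 to 1.64), and combination over poly I:C 1.01 (0.965 to 1.06) and 0.858 (0.734 to 1). In monocytes poly I:C over control was 1.74 (1.40 to 2.18), but the combination had 12.3 CPM against 17.4 CPM in phenformin. Combination over poly I:C was 0.558 (0.452 to 0.686) there. Stab1 was thus higher with poly I:C on either background in macrophages, and in monocytes only without phenformin. The macrophage marker sum of the high part was likewise higher in both poly I:C libraries, at 12013, 15234, 27905 and 26421 CPM, and its part in the Stab1 and Mertk ratios was not tested.

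**Figure D4:**
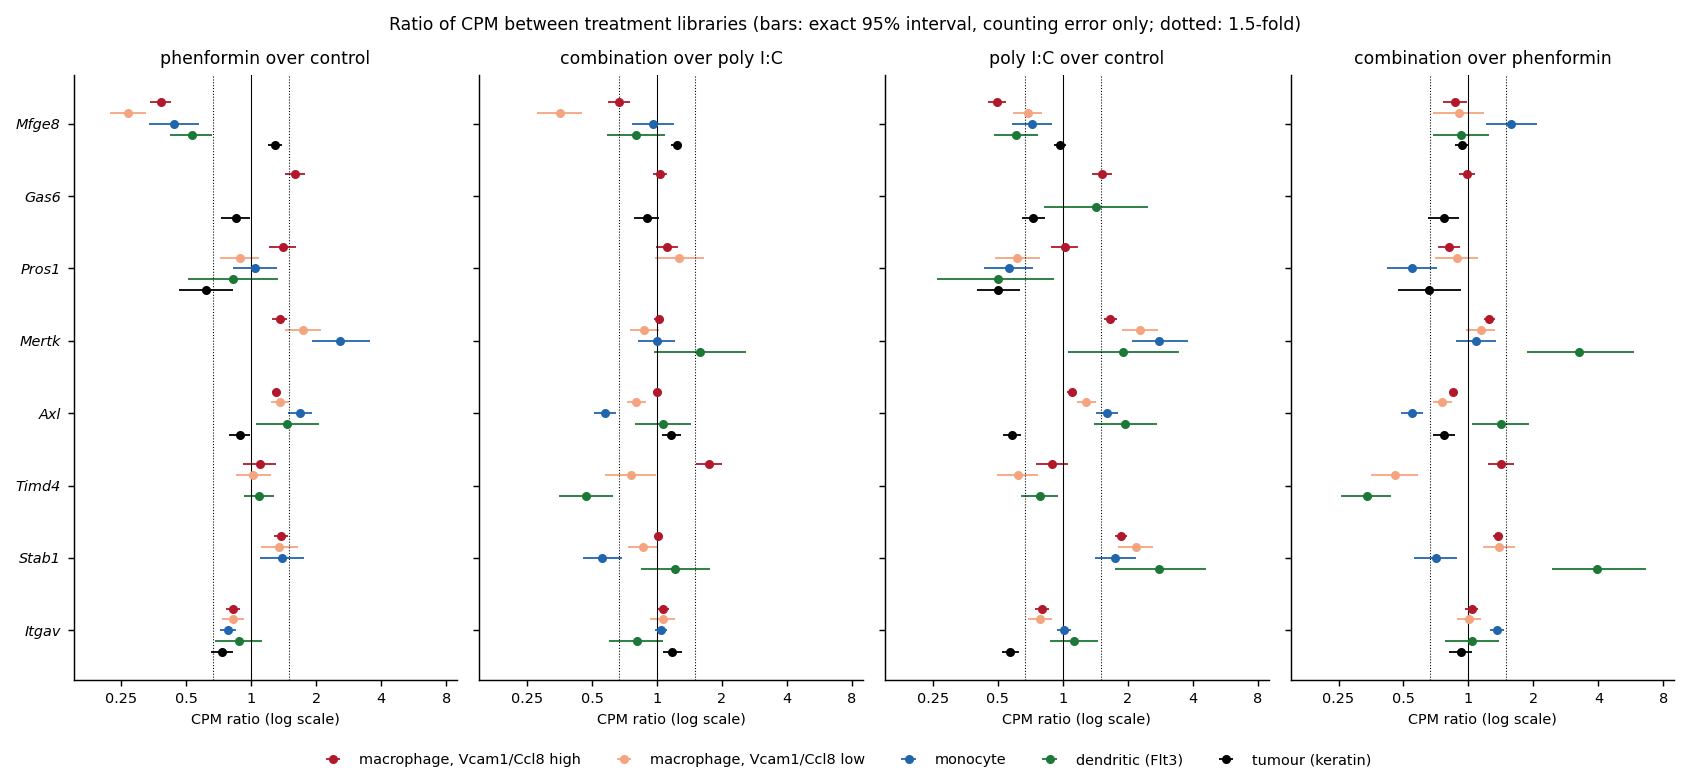
Ratios of the 8 members in 5 gates for the 4 treatment comparisons, with exact 95% intervals for counting error and lines at 1.5-fold in either direction, on a logarithmic axis. Mfge8 lies below 1 with phenformin in both macrophage parts (0.379 and 0.269) and above it in the keratin gate (1.28), and Mertk and Stab1 lie above 1 with poly I:C in both macrophage parts.

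Itgav, the alpha v integrin chain, was a transcript of T cells in these tumours more than of phagocytes. The T cell gate had 455, 402, 391 and 336 CPM, against 86.6, 71.5, 69.3 and 74.0 CPM in the high macrophage part and 132, 103, 134 and 140 CPM in monocytes. It held 48.5%, 51.1%, 39.5% and 46.9% of all Itgav UMIs, and T cells were above the next gate in each library. Low macrophages had 67.7, 55.6, 53.0 and 56.2 CPM, the keratin gate 93.9, 68.7, 53.8 and 63.4 CPM and the Flt3 gate 35.9 to 46.4 CPM. At 2000 UMIs per cell 43.7% to 54.6% of T cells had an Itgav UMI, against 12.1% to 14.2% of the high macrophage part. Foxp3-positive T cells had 694, 630, 505 and 627 CPM, and cells with Cd8 UMIs 406, 354, 371 and 312 CPM, so that Foxp3-positive cells were higher in each library.

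Among myeloid gates the monocyte gate had the most Itgav, but its rule does not exclude T cells. Its T cell marker sum was 1012, 895 and 1445 CPM in control, phenformin and poly I:C. The T cell gate had 3056.5, 3110 and 3798 CPM in these libraries. The part of T cells in the Itgav and Itgb3 levels of the monocyte gate was not tested. The log2 fold change of low macrophages over monocytes was -0.82 (SE 0.12, edgeR adjusted p = 3.81e-05, lower in 4 of 4 libraries), under the 2-fold limit, and it was -1.59 and called lower with cells in exactly 1 gate. High and low macrophages did not differ by the test (0.23, SE 0.12, edgeR adjusted p = 0.232). The beta chains, which set the ligand of the integrin, were divided between gates. Itgb3, the partner chain of the classic MFG-E8 receptor, was at 135, 70.9, 66.0 and 51.0 CPM in T cells and 11.4, 5.53, 7.41 and 4.57 CPM in high macrophages. Itgb5, the other MFG-E8 partner chain, was at 81.6, 89.8, 104 and 139 CPM in high macrophages and 1.49 to 4.06 CPM in T cells. Itgb8, the chain of a transforming growth factor beta activator, was at 8.79 to 20.3 CPM in T cells and 19.1 to 34.5 CPM in the keratin gate. Monocytes had 34.7 to 55.8 CPM of Itgb3, and the keratin gate up to 33.9 CPM of Itgb5. Itgb5 was thus highest in high macrophages, and Itgb3 in T cells, in each library. For Itgav in the keratin gate, poly I:C over control was 0.572 (0.521 to 0.629), combination over phenformin 0.922 (0.817 to 1.04), and in both macrophage parts the ratios of all 4 comparisons lay between 0.783 and 1.07.

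**Figure D5:**
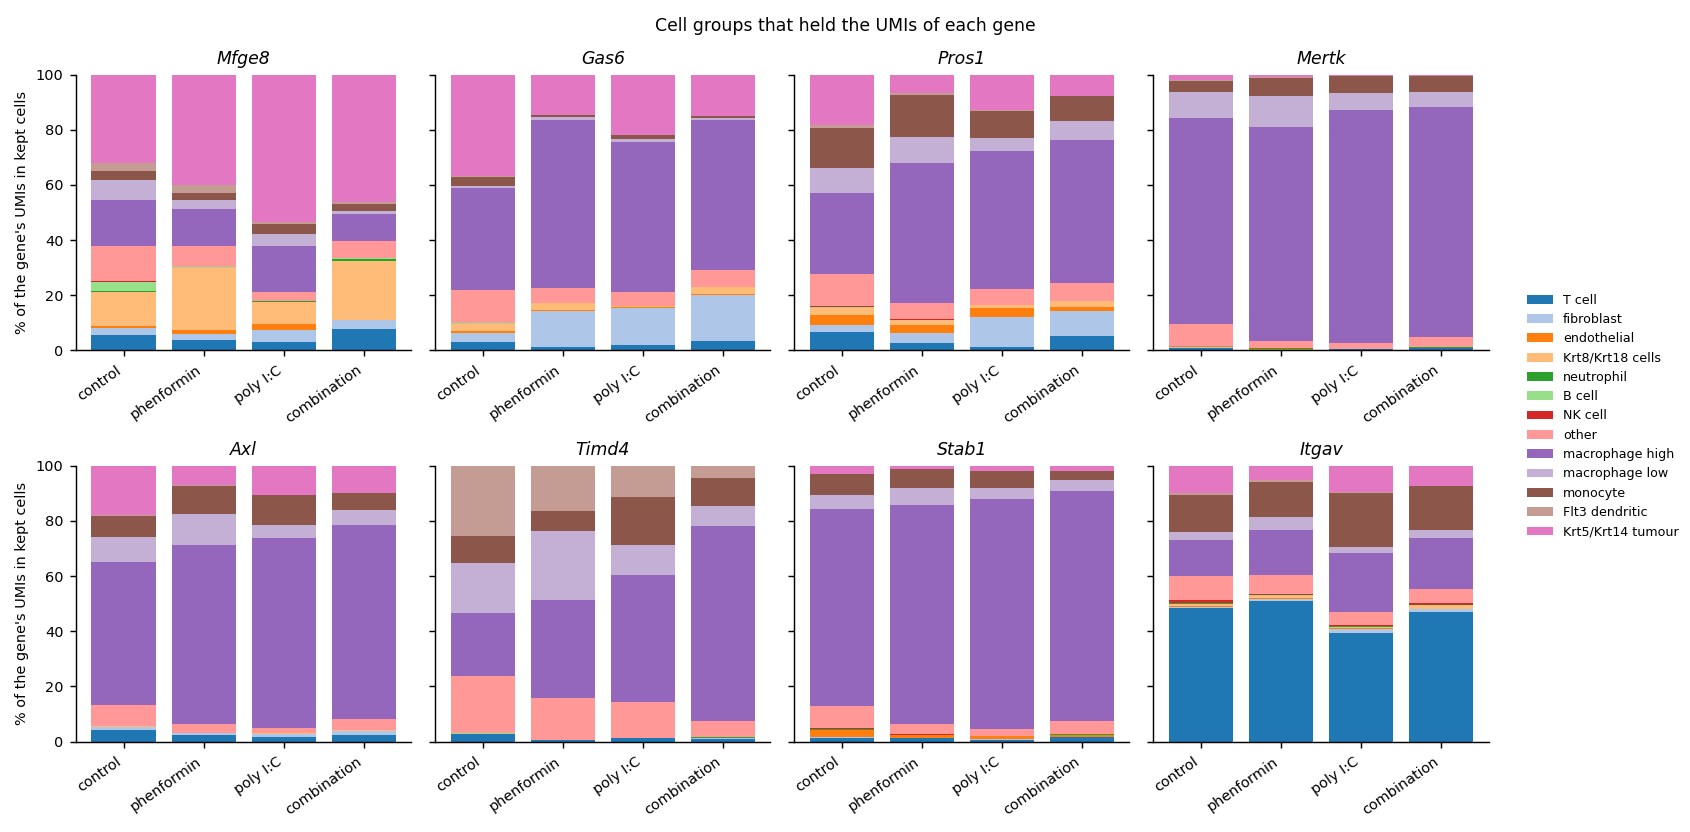
Stacked bars of the share of each member's UMIs, in percent of that gene's UMIs in all kept cells, by cell group and library, each cell being in 1 group. High macrophages held 74.6% to 84.4% of Mertk, 71.5% to 83.6% of Stab1 and 52.0% to 70.3% of Axl UMIs, Krt5/Krt14 cells 32.0% to 53.4% of Mfge8, and T cells 39.5% to 51.1% of Itgav.

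The number of members past a size limit was read against all genes. A member was tested in a gate where the higher library had at least 30 UMIs and 10 CPM, and counted where the ratio was at least 1.5-fold, a limit of size and no test. The share of all tested genes past it in either direction is given beside each count. For phenformin over control 31 of the 40 pairs of member and gate were tested, 4 were higher and 5 lower. In the high macrophage part Gas6 was higher and Mfge8 lower of 8 tested (1.77% of all genes; median log2 ratio of the members 0.41, of all genes -0.03), and in the low part Mertk higher and Mfge8 lower of 7 (2.83%; medians 0.03 and -0.05). In monocytes Mertk and Axl were higher and Mfge8 lower of 6 (3.84%; medians 0.26 and -0.07), the last not without keratin- or collagen-holding cells (1.01). In the Flt3 gate Mfge8 was lower of 5 (10.4%; medians -0.20 and -0.08), but 0.790 (0.614 to 1.01) without keratin- or collagen-holding cells. Of the 124 Mfge8 UMIs of that gate in the phenformin library, 73 were in 1 cell. In the keratin gate Pros1 was lower of 5 (5.53%; medians -0.24 and -0.14).

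For combination over poly I:C 30 pairs were tested, 2 were higher and 5 lower. In the high part these were Timd4 higher and Mfge8 lower of 8 (3.01% of all genes; medians 0.03 and 0.06), in the low part Mfge8 lower of 7 (8.62%; medians -0.22 and 0.08), and in monocytes Axl and Stab1 lower of 5 (5.44%; medians -0.06 and 0.06). In the Flt3 gate Mertk was higher and Timd4 lower of 6 (12.8%; medians -0.11 and 0.06), and in the keratin gate 0 of 4 passed (1.41%; medians 0.23 and 0.05). Mfge8 was the member past the limit in both comparisons of phenformin in both macrophage parts, at 0.666 only just in the high part of the second. Whether the ratios differ between the backgrounds was not tested.

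Poly I:C over control gave the largest counts, with 11 higher and 9 lower of 34 tested pairs. In the high part Gas6, Mertk and Stab1 were higher and Mfge8 lower of 8 (6.44% of all genes; medians 0.08 and -0.08), and in the low part Mertk and Stab1 were higher and Pros1 and Timd4 lower of 7 (15% of all genes; medians -0.35 and -0.13). In monocytes Mertk, Axl and Stab1 were higher and Pros1 lower of 6 (13.3%; medians 0.35 and -0.14). In the Flt3 gate Mertk, Axl and Stab1 were higher and Mfge8 and Pros1 lower of 8 (19.3%; medians 0.34 and -0.09). Mfge8 was 0.701 (0.524 to 0.933) there without keratin- or collagen-holding cells, which is under the limit. Flt3-gate cells in no other gate held 0 to 1 Stab1 UMIs and 1 to 3 Mertk UMIs per library, so the Mertk and Stab1 calls came from cells shared with other gates. Axl in those cells was at 15.9 CPM in control and 17.9 CPM in poly I:C. In the keratin gate Pros1, Axl and Itgav were lower of 5 (20.3%), and the median of the members was -0.78 beside -0.22 for all genes. What lowered the median of all genes was not tested.

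Combination over phenformin gave 3 higher and 5 lower of 32 tested pairs. In the high part 0 of 8 passed (7.67% of all genes; medians 0.01 and 0.02), in the low part Timd4 was lower of 7 (11.8%; medians -0.15 and 0.01), and in monocytes Mfge8 was higher and Pros1 and Axl lower of 6 (13% of all genes; medians -0.20 and -0.02). That Mfge8 ratio was 1.01 (0.716 to 1.42) without keratin- or collagen-holding cells and 0.847 with thinned cells. In the Flt3 gate Mertk and Stab1 were higher and Timd4 lower of 6 (14.6%; medians 0.28 and 0.05), and in the keratin gate Pros1 was lower of 5 (4.36%; medians -0.38 and -0.02). The poly I:C differences of Gas6 and Mertk seen against the control were thus under the limit in high macrophages when phenformin was present.

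Other genes of the pathway were counted in the whole macrophage gate by the same limit. For poly I:C over control, where 2.89% of all tested genes were higher and 4.63% lower, 3 of 9 tested soluble opsonins were higher and 1 lower (median log2 ratio 0.24, all genes -0.10). C1qa, a chain of the complement C1q that coats apoptotic cells, was at 4689 against 2494 CPM (1.88-fold), and C1qb was 2.07-fold higher. Thbs1, the matrix protein thrombospondin that bridges to CD36, was at 199 against 421 CPM. Of 13 apoptotic-cell receptors 0 were higher and 2 lower, Cd300lb (0.565) and Itgb3 (0.584). Of 14 cargo digestion and sterol efflux genes 2 were higher, the lysosomal proteases Ctsl (2.34) and Ctsd (1.63), and of 3 find-me receptors the lysolipid receptor Gpr132 was lower (0.630). None of 11 engulfment genes, 4 do-not-eat-me genes or 7 TAM shedding and feedback genes passed, with Vav3 (0.765), Sirpa (0.843) and Adam10 (0.857) among the largest ratios.

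For phenformin over control 0.428% of all tested genes were higher and 1.03% lower in the whole macrophage gate. Itgb3 was lower (0.599) of 13 receptors, and Il10, an anti-inflammatory cytokine made by macrophages that take up dying cells, was 1.82-fold higher (18.7 against 10.3 CPM) of 7 feedback genes. None of 9 opsonins, 11 engulfment, 14 digestion, 4 do-not-eat-me or 3 find-me genes passed. For combination over poly I:C, where 1.49% of all genes were higher and 1.52% lower, Cd36, a scavenger receptor, was lower among 11 receptors, and 0 of 9 opsonins, 11 engulfment, 14 digestion, 4 do-not-eat-me, 3 find-me and 7 feedback genes passed. For combination over phenformin, where 4.73% were higher and 3.60% lower, 4 of 9 opsonins were higher (C1qa, C1qb, C1qc and C4b) and Thbs1 was lower. Of 12 receptors Cd300a and Itgb5 were higher and Cd300lb and Cd36 lower, and of 14 digestion genes Nr1h3, Lipa and Ctsd were higher. Of 3 find-me receptors 1 was higher, as was 1 of 7 feedback genes, and 0 of 11 engulfment and 4 do-not-eat-me genes passed.

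The genes most like each member over the 20 sums of library and class were found by Pearson correlation of log2(CPM + 5) among 7866 genes. These sums share cells' libraries and large steps between cell types, so the values are descriptions. Mertk was most like Abcc3 (r = 0.985), Tmem119 (0.982) and Tmem37 (0.981), and Stab1 was most like Tpp1 (0.972), Camk1 (0.968) and Mertk itself (0.968). Axl was most like Sash1 (0.969), Itgb5 (0.959) and March8 (0.958), and its r was 0.886 with Stab1 and 0.834 with Mertk. For Timd4, Etv3 (0.966) and Cst3 (0.962) were among the most alike. The bridging molecules had weaker neighbours: Gas6 with Scoc (0.930), Wwp1 (0.927) and 4931406C07Rik (0.913), Pros1 with Sptlc1 (0.942), Tollip (0.932) and Ocrl (0.930), and Mfge8 with Ppfibp1 (0.904), Cx3cl1 (0.903) and Rgs12 (0.901). Itgav, highest in the T cell gate, which was not among these classes, was most like Creb3l2 (0.882), Klf13 (0.876) and Dbf4 (0.867).

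Receptor and ligand were also read in the same cells at 2000 UMIs per cell. In the high macrophage part, cells with both a Mertk and an Axl UMI were 4.96%, 5.39%, 7.37% and 6.53% of cells, and the product of the single shares was 3.99%, 5.05%, 6.73% and 6.33%. Cells with both Gas6 and Axl were 2.31%, 2.2%, 3.11% and 3.14%, beside products of 2.38%, 3.36%, 3.23% and 3.29%. Cells with both Gas6 and Mertk were 1.20%, 1.21%, 2.24% and 2.88%, beside products of 1.11%, 1.49%, 2.17% and 2.14%. For Mertk with Stab1 the shares were 2.65%, 3.11%, 5.07% and 5.97%, beside products of 1.91%, 2.86%, 5.16% and 5.01%. Joint detection of Gas6 with Axl lay below the product in each library. For Gas6 with Mertk it lay below the product in phenformin and above it in control, poly I:C and combination. These differences were not tested.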

How the data were processed

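The deposited files hold UMI counts per gene and cell barcode, which the authors made with Cell Ranger 3.1.0 on mm10 (GRCm38), per the submitters' processing notes; further steps are not stated in the labels. The values were used as deposited, without normalization. Groups come from the labels. The labels do not say whether a library came from 1 animal or a pool, and the members, gates and lists were chosen with earlier results of these data known.

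Barcodes numbered 7309, 6539, 7668 and 9303 (control, phenformin, poly I:C, combination), with 59071838, 62744050, 77488625 and 72704517 UMIs. Counts were summed per gate and library and scaled to CPM, with exact Poisson intervals at the 95% level and, for ratios, the exact interval that is conditional on both counts. Gates overlap, except in the fit between classes: edgeR 4.0.16 (R 4.3.3) with TMM scaling, filterByExpr and the quasi-likelihood test, in which monocyte-gate cells were taken out of the macrophage gate and both out of the Flt3 gate. DESeq2 1.42.0 was an alternative. The fit was tested on simulated data. Scrublet (scanpy 1.11.5) called 114, 0, 1 and 1 doublets, so it worked in at most 1 library, and no doublets were removed in the main values. The text names all members, up to 3 genes per pathway list with the largest ratio in each of 2 comparisons, genes past the limit in short lists, and the 3 most alike genes per member; a gene that this rule names is not reported here.

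Alternatives were stricter cell filters and gates, classes without overlap, TMM scaling, the mean over cells, cells thinned to 2000 UMIs or limited to 2000 to 10000 UMIs, removal of mixed droplets or Scrublet calls, other fold and count limits, another tool, size factors or filter, and leaving out each library. Leaving out cells with keratin or collagen UMIs, or the 10 cells of highest count, was chosen after seeing the data. So were the cell groups outside the gates and the genes compared in Mfge8-rich, Timd4-rich and Gas6-rich cells. Promoters are from RefSeq, build GRCm38.p6, and gene positions from GENCODE on GRCm38, matched by Ensembl ID.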

Additional observations from a re-analysis of the deposited data

Results flagged for a closer look

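Effects of 1 agent that pointed in opposite directions in 2 gates, both with and without the other agent, stood out in 3 cases, and none of these differences was tested, because each treatment had 1 library. For Mfge8, the phenformin ratio was 1.28 in the keratin gate and 0.379 in Vcam1/Ccl8-high macrophages without poly I:C, and 1.23 and 0.666 with it. The same keratin-gate ratios of 1.28 and 1.23 stood against 0.269 and 0.353 in Vcam1/Ccl8-low macrophages. For Axl, the poly I:C ratio was 1.94 in the Flt3 gate and 0.582 in the keratin gate without phenformin, and 1.41 and 0.766 with it. Flt3-gate cells in no other gate did not show the Axl difference, at 15.9, 20.9, 17.9 and 14.8 CPM (control, phenformin, poly I:C, combination) from 7 to 23 UMIs.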

How the results depend on the processing

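Of 565 values of the 52 treatment ratios past 1.5-fold, under 11 alternatives, 13 changed direction. In cells of 2000 to 10000 UMIs Mfge8 became 1.56 for phenformin over control in low macrophages, and 1.41, 1.13 and 1.28 for combination over poly I:C in high, low and all macrophages, and Mertk for poly I:C over control became 0.201 in the Flt3 gate. That Mertk ratio was 0.784 as a mean over cells and 0.626 with classes without overlap, the latter from 1 against 3 UMIs, which gives no direction. With cells thinned to 2000 UMIs, Mfge8 in monocytes was 1.06 for phenformin over control and 0.847 for combination over phenformin, and Pros1 in the keratin gate was 2.49 for combination over phenformin. Stricter gates gave 0.959 for Mertk in the Flt3 gate (combination over poly I:C) and 1.14 for Timd4 in low macrophages (combination over phenformin). Without cells holding keratin or collagen UMIs Mfge8 in monocytes was 1.01 for phenformin over control. Ratios under the limit crossed 1 as well, among them Mfge8 without the 10 cells of highest count for poly I:C over control in low macrophages (1.65) and for combination over phenformin in high (1.02) and all (1.05) macrophages. The cause was not tested.

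The counts of member and gate pairs past the limit moved as follows. They are given without the share of all genes under each setting, so they cannot be read against it. Phenformin over control had 8 higher with thinned cells and 1 at a 2-fold limit, and 3 lower by the mean over cells, 2 with thinned cells, 3 in cells of 2000 to 10000 UMIs, 3 at 2-fold and 8 with no minimum. Combination over poly I:C had 1 higher with classes without overlap, the mean over cells, thinned cells, cells of 2000 to 10000 UMIs or stricter gates and 0 at 2-fold, and 3 lower in cells of 2000 to 10000 UMIs and 2 at 2-fold. Poly I:C over control had 7 higher by the mean over cells, 7 with thinned cells, 5 in cells of 2000 to 10000 UMIs and 4 at 2-fold, and 1 lower at 2-fold. Combination over phenformin had 1 higher with classes without overlap, 0 with thinned cells and 5 with no minimum, and 8 lower by the mean over cells, 9 with thinned cells and 2 at 2-fold.

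In the edgeR fits, 363 of 384 values under 12 alternatives kept direction and call. In cells of 2000 to 10000 UMIs, high over low macrophages turned to 0.054 for Mfge8 and 1.32 for Timd4, and keratin-gate cells over macrophages to 0.36 for Itgav. Members called higher there were 5 for high over low macrophages, 4 for low macrophages over monocytes and 1 for the keratin gate. The fit without the replicate block of library gave the same counts of members called: 3, 5, 2 and 2 higher and 0, 0, 5 and 5 lower. Leaving out 1 library at a time gave 3 to 3 higher and 0 to 1 lower for high over low macrophages, 5 to 6 higher and 0 to 0 lower for low macrophages over monocytes, 1 to 2 higher and 5 to 5 lower for the Flt3 gate, and 1 to 2 higher and 4 to 5 lower for the keratin gate. Without phenformin, Mfge8 in the Flt3 gate was not called (0.84), and without control, Gas6 in the keratin gate was not (0.94). With cells in exactly 1 gate, 6 members were higher and 1 (Itgav, -1.59) lower for low macrophages over monocytes. DESeq2 left 4 lower in the keratin gate (Pros1 at -0.92).

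Depth limits Mertk, Stab1 and Timd4 in the keratin gate, Gas6 in low macrophages and monocytes, and all members in the Flt3 gate, where sums of 2255678 to 3402647 UMIs gave as few as 10 UMIs of a member.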
